A study of Mus musculus with 18 samples.

Results

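The 8 genes described here, Six3, Emx2, Lhx2, Otx1, Hesx1, En2, Gbx2 and Egr2, encode transcription factors that mark regions of the developing forebrain, midbrain and hindbrain. They were taken by gene symbol, as the probe sets whose single symbol in the array's gene table is one of the 8 names. All 8 were found, with 11 probe sets, among the 18193 genes that the array measures through probe sets with a single symbol.

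The neural tube is divided along its length by transcription factors whose domains meet at sharp borders. Six3, Hesx1, Emx2, Lhx2 and Otx1 act at its anterior end, En2 acts around the border of midbrain and hindbrain, and Gbx2 and Egr2 act behind that border. Retinoic acid (RA), made by the mesoderm beside the neural tube, gives neural tissue posterior hindbrain and spinal identity and is used in culture for the same purpose. Some of these genes are also used outside the brain: Hesx1 and Gbx2 are expressed in mouse embryonic stem (ES) cells, and Egr2 is an immediate early gene, one that cells switch on within minutes of a stimulus such as serum.

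HBG3 mouse ES cells, a line known to carry a GFP reporter under the promoter of the motor neuron gene Hb9 (Mnx1), were differentiated into motor neurons, and RNA from 6 stages was amplified and hybridised to 18 Affymetrix mouse arrays. The groups were ES cells (day 0, replicates 1, 2 and 3), untreated aggregates of cells called embryoid bodies (day 2, replicates 1 to 4), embryoid bodies of day 2 after 8 h of RA (replicates 1 and 3), and days 3, 4 and 7 of the protocol (replicates 1 to 3 on days 3 and 4, and replicates 3, 4 and 5 on day 7). In the protocol RA and an agonist of hedgehog signaling were added on day 2, so the arrays of days 3, 4 and 7 carry both, while the 8 h arrays are labelled with RA alone, and whether the agonist was also present there is not settled. No array of untreated embryoid bodies 8 h later, or of untreated cells on days 3 to 7, was analysed here, so time in culture and treatment cannot be told apart in any comparison after day 2. ES cells were amplified on feeder cells or grown on gelatin for differentiation. The methods describe biological triplicates, but the labels do not say that arrays of a stage came from separate cultures, so the p-values measure only the spread between these arrays.

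Values are GCRMA signals on the log2 scale, in which a difference of 1 is a change of 2-fold, and 4 served as the background level. On each array 55.21% to 56.94% of probe sets lay under it. Markers changed along the protocol. The ES cell factor Pou5f1 averaged 12.18 at day 0, 12.51 at day 2 and 2.50 at day 4. The motor neuron factor Isl1 averaged 2.79 at day 3, 10.81 at day 4 and 11.58 at day 7. These genes thus separate early from late stages, but not day 0 from day 2 or day 4 from day 7. Mnx1 averaged 6.65 ± 0.90 at day 7 (SD, n = 3). Chat, the enzyme that makes acetylcholine, stayed under the background level on every array. It was the 1 of 6 motor neuron markers in that state. Slc18a3 averaged 2.70 at day 4 and 7.03 at day 7, Lhx3 6.07 and 7.88, and Isl2 2.52 and 4.89. Day 0 replicate 2 had the lowest mean correlation with its own stage of the 18 arrays (0.97), and results that rest on it are given with and without it. A gene was called when a probe set changed at least 2-fold with an adjusted p under 0.01 from limma, and a gene with several probe sets is described by its brightest.

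**Figure D1:**
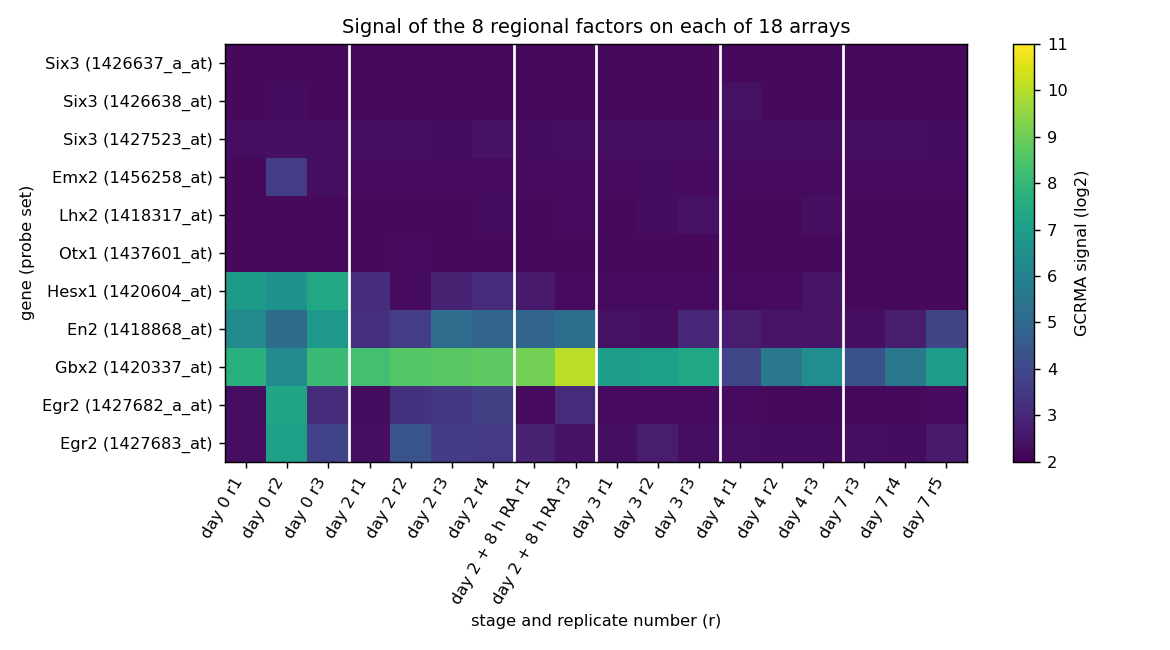
GCRMA signal (log2, colour) of the 11 probe sets of the 8 genes (rows, with the probe set in brackets) on each of the 18 arrays (columns, by stage and replicate number, white lines between stages). Rows of Six3, Emx2, Lhx2 and Otx1 lie under 4 throughout, Gbx2 is the one gene with every stage mean above 4, and Egr2 reaches 7.13 on 1 day 0 array.

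Promoter windows of 250 bases before and 50 after a start site were matched by symbol to 6 of the 8 genes, all but Otx1 and En2 (11 windows, RefSeq, GRCm38.p6). The 250 bases before the start are shown for the genes whose signals the results turn on and that matched. Hesx1, with the largest called change, is shown from chr14:27000112-27000361 on the plus strand, in which none of the motifs searched was found.

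Hesx1: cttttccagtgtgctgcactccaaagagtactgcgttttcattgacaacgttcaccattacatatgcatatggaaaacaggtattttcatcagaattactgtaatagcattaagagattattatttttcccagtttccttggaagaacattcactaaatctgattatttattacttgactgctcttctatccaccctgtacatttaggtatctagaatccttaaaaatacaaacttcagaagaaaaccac

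Gbx2, called lower at day 4 than at day 2, is shown from chr1:89931177-89931426 on the minus strand, with an E-box (CACGTG) in capitals, which starts at position -74 from the start site.

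Gbx2: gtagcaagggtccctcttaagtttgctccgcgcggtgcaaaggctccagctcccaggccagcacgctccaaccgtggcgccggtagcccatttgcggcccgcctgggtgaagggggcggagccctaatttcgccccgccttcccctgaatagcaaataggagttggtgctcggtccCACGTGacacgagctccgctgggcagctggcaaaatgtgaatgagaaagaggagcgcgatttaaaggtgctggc

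Egr2, high on 1 day 0 array together with other immediate early genes, is shown from chr10:67537619-67537868 on the plus strand, with a CArG box in capitals, which starts at position -72. CArG boxes are the sites of serum response factor.

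Egr2: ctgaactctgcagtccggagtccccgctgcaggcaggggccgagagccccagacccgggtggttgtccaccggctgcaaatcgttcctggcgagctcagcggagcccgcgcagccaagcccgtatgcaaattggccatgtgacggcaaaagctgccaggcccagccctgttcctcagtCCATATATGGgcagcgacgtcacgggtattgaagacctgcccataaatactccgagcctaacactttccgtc

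The motifs were searched on both strands of all 32851 promoter windows. The E-box was found in 7.15% of them and the CArG box in 1.63%. Egr2 had a match to the octamer ATGCAAAT in the same window, at position -127, which 1.74% of windows hold. The half-site of RA receptors (AGGTCA, in 16.3% of windows), its direct repeats 2 bases apart (AGGTCANNAGGTCA) and 5 bases apart (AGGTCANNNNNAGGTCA, each in 0.00913%; each contains the half-site), a STAT site (TTCNNNGAA, in 8.3%) and a cyclic AMP response element (TGACGTCA, in 1.79%) were not in the windows of the 6 genes. Of 7 other immediate early genes with a promoter window none held a CArG box, against 1.81% of the 27025 genes with a promoter. These are matches of letters in short windows and nothing is read from them about binding.

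The anterior genes Six3, Emx2, Lhx2 and Otx1 stayed under the background level on all 18 arrays. Six3, a homeobox factor of the anterior neural plate and eye, has 3 probe sets: one stood at 2.24 on every array, another lay between 2.24 and 2.39, and the brightest between 2.31 and 2.45. Otx1, a head gene of forebrain and midbrain, lay between 2.24 and 2.25, which is the lowest level the files hold. Lhx2, a LIM homeobox factor needed for the eye and the cortex, lay between 2.24 and 2.45. For none of the 3 genes did any array differ from another by more than 0.22 on the log2 scale.

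Emx2, a homeobox factor of the dorsal forebrain, had 2.24, 3.64 and 2.38 on day 0 replicates 1, 2 and 3, and between 2.26 and 2.30 on the other 15 arrays. The one raised value was in day 0 replicate 2 and was itself under the background level. Antisense transcripts named for the neighbouring loci were also at the floor: Six3os1 stood at 2.24 on every array and Emx2os lay between 2.25 and 2.42. No array shows these probe sets above background, so the arrays do not show whether the probe sets can detect the transcripts, and a low level cannot be told apart from none.

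Among the 8 genes, 4 (50%) had every probe set under the background level on every array, against 5518 of the 18193 genes measured (30.3%). Other factors of the forebrain, from a list chosen by region, had 14 of 23 measured genes in that state (60.9%). Other factors of the midbrain and its border with the hindbrain had 8 of 15 (53.3%), among them Pax5, Wnt1 and Fgf8. Other factors of the hindbrain had 2 of 14 (14.3%). These are counts, without a test.

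Hesx1, a homeobox repressor of the anterior forebrain and pituitary, was the anterior gene that was detected, and it was detected in ES cells alone. It had 3.13, 2.27, 2.88 and 3.08 on the 4 day 2 arrays, against 6.90, 6.59 and 7.40 on the 3 day 0 arrays. All 4 day 2 arrays lay under the background level and all 3 day 0 arrays above it. Hesx1 fell by 4.12 on the log2 scale at day 2 relative to day 0 (standard error 0.21, adjusted p = 9.4e-08 from limma), which is at least 7.8-fold with the day 2 mean set to the background level.

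It was the 1 member called lower of the 8 in this comparison, in which 2.46% of all genes were called lower. At unadjusted p under 0.05 and 2-fold there were 2 members. The share of all genes at that looser threshold was not counted in this fit, so the 2 cannot be set against it. With 1 array left out at a time, the log2 fold change of Hesx1 ranged from -4.31 to -3.91 and the adjusted p from 1.0e-07 to 1.0e-06. The call was lost with the replicate number as a block (log2 fold change -4.205, adjusted p = 0.19), a fit in which no gene was called by limma and 1384 genes passed an unadjusted p under 0.05 and 2-fold.

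After day 2, Hesx1 stayed at the floor. It had 2.65 and 2.27 after 8 h of RA, between 2.25 and 2.27 at day 3, between 2.26 and 2.52 at day 4 and 2.24 on all 3 day 7 arrays. In the embryo Hesx1 is expressed in the anterior neural plate, and here all 15 arrays after day 0 were under the background level. The genes whose profile over the 18 arrays was most like that of Hesx1 were Prdm14 (Pearson r = 0.99), a factor of the naive pluripotent state, and Dusp27 (r = 0.99), out of 4919 genes whose stage means span at least 2 log2 units. Prdm14 averaged 2.63 at day 2 and 8.34 at day 0. The 18 arrays share a time course, so such values are a description.

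Of 10 factors of naive pluripotency measured, 7 were called lower at day 2 than at day 0, among them Tbx3 (log2 fold change -6.05), Tfcp2l1 (-4.89) and Esrrb (-4.88). The median of that list was -3.30, against 0.00 over all genes, of which 2.46% were called lower. For Klf4, 1 of the 7, the call rested on its other probe set and not the brightest (-3.58, adjusted p = 0.079 from limma). Of 5 markers of feeder fibroblasts, Col1a1 was called lower (-4.79) and the other 4 did not pass. Of these, Thy1 alone was higher on day 2, at 6.52 against 5.88 on day 0. Col1a2 averaged 3.48 on day 2 and 7.08 on day 0, and Col3a1 averaged 2.25 and 4.77. Postn had both means under the background level (2.27 and 2.85). The median log2 fold change of these 5 genes was -2.52. The mean signal of the 5 genes was 3.74 to 4.10 on the day 2 arrays, against 4.56, 6.80 and 6.98 on day 0 replicates 1, 2 and 3. Hesx1 had 6.90, 6.59 and 7.40 on the same 3 day 0 arrays. The part of feeder cells in the Hesx1 signal was not tested. In RNA from whole cultures, fewer cells of a type and less RNA per cell cannot be told apart, here and in the results that follow.

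**Figure D2:**
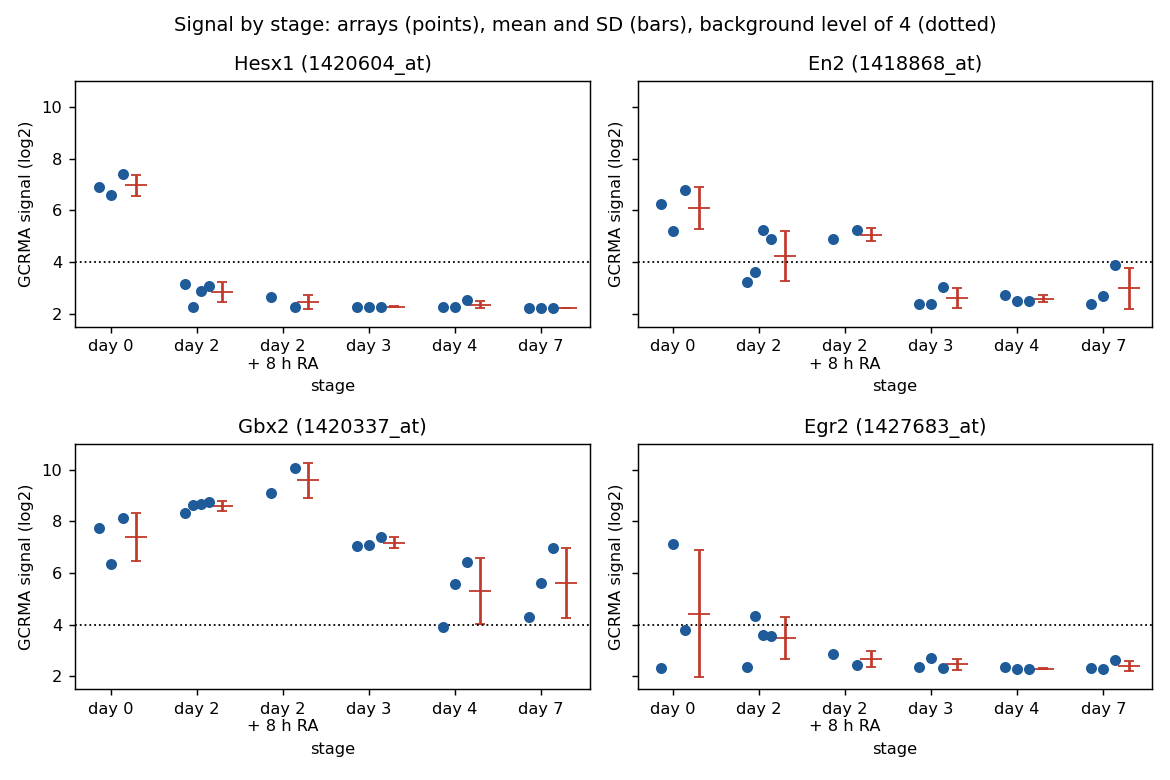
GCRMA signal (log2, vertical axis) of the brightest probe set of Hesx1, En2, Gbx2 and Egr2 by stage (horizontal axis). Points are arrays, the bar beside them is the mean and SD, and the dotted line is the background level of 4; Hesx1 is above it at day 0 only, and the Egr2 mean of 4.42 at day 0 rests on 1 array at 7.13.

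En2, an engrailed homeobox factor of the midbrain and its border with the hindbrain, was above the background level on 7 of the 18 arrays, all of them from day 0, day 2 or the RA stage, and under it on every array from day 3 on. It had 6.24, 5.19 and 6.80 on the day 0 arrays and 3.23, 3.63, 5.23 and 4.89 on the day 2 arrays. After 8 h of RA it had 4.89 and 5.23. The day 2 arrays fell on both sides of the background level, and the RA arrays lay at their upper end.

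At day 3 En2 had 2.39, 2.37 and 3.04, at day 4 it had 2.73, 2.51 and 2.50, and at day 7 it had 2.37, 2.68 and 3.87. All 9 arrays were under the background level. The 6 of days 3 and 4 had lower values than every day 2 array, but 2 of the day 2 arrays were also under that level. Values under it have no order, so a separation from those 2 arrays is not shown. None of the neighbouring stages passed the test. The log2 fold change was -1.83 at day 2 relative to day 0 (standard error 0.52, adjusted p = 0.064 from limma). It was -1.65 at day 3 relative to day 2 (standard error 0.52, adjusted p = 0.077) and -1.67 at day 4 relative to day 2 (adjusted p = 0.052). In a fit that weights the arrays by their agreement with their stage, the day 3 value was -2.20 and was called (adjusted p = 0.0027), while with values raised to the background level it was -0.53 (adjusted p = 0.67), and the fold is at least 1.19 with the day 3 mean set to that level. The stage means above the background level ordered as day 0 (6.08 ± 0.82, SD, n = 3), the RA arrays (5.06 ± 0.25, SD, n = 2) and day 2 (4.25 ± 0.97, SD, n = 4). The RA arrays and day 2 did not differ beyond their spread (0.81, adjusted p = 1.0), day 0 was not tested against the RA arrays, and days 3, 4 and 7 lay under the background level and have no order.

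The genes with profiles most like that of En2 were Lama3 (r = 0.96), a laminin chain, and Nptx2 (r = 0.95), a pentraxin. Lama3 averaged 6.66, 4.29 and 5.20 at day 0, day 2 and after RA, and 2.24 at each later stage. Over the same 18 arrays r was 0.76 between En2 and Hesx1 and 0.60 between En2 and Gbx2. Spry1, an inhibitor of FGF signaling, and Cnpy1, known from zebrafish to act with FGF at the same border, were both called lower at day 3 than at day 2 (log2 fold changes of -2.90 for Spry1 and -4.06 for Cnpy1). They were 2 of the 15 midbrain and border genes measured besides En2, and none was called higher, where 3.80% of all genes were called lower. At day 4 relative to day 2, Fgf17, an FGF ligand of that border, was called lower as well, by at least 1.76-fold with its day 4 mean set to the background level. This made 3 of 15 lower and 0 higher, where 7.10% of all genes were called lower. All 3 had their highest stage mean in ES cells at day 0 (Cnpy1 8.72, Spry1 7.21 and Fgf17 7.06). Other genes of the list rose without a call. Nr4a2 averaged 4.67 at day 2 and 7.31 at day 4, and Foxa2 averaged 3.82 and 5.21.

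Gbx2, the homeobox factor that places the border of midbrain and hindbrain from its posterior side, was above the background level on 17 of the 18 arrays and had the widest range of the 8 genes (6.15). It had 7.73, 6.35 and 8.13 on the day 0 arrays and 8.32, 8.64, 8.68 and 8.76 on the day 2 arrays. After 8 h of RA it had 9.11 and 10.05, its 2 highest values. All 4 day 2 arrays lay above all 3 day 0 arrays, and both RA arrays above all 4 day 2 arrays.

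Neither step passed the test. The log2 fold change was 1.20 at day 2 relative to day 0 (standard error 0.66, adjusted p = 0.44 from limma). It was 0.98 after RA relative to day 2 (standard error 0.75, adjusted p = 1.0), beside an SD of 0.67 between the 2 RA arrays. After RA none of the 8 members was called, at an adjusted or an unadjusted p, while 0.434% of all genes were called in either direction at the adjusted p.

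At day 3 Gbx2 had 7.03, 7.09 and 7.40, at day 4 it had 3.91, 5.59 and 6.43, and at day 7 it had 4.28, 5.62 and 6.97. The day 3 arrays lay under all day 2 arrays and above all day 4 arrays, and the arrays of days 4 and 7 covered the same range. Gbx2 fell by 3.29 on the log2 scale at day 4 relative to day 2 (standard error 0.66, adjusted p = 0.0041 from limma), a 9.8-fold lower signal. It was the 1 member called lower of the 8, where 7.10% of all genes were called lower. At unadjusted p under 0.05 and 2-fold there were 2 members, a threshold at which the share of all genes was not counted.

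The call was close to its threshold. It held without day 2 replicate 1 or day 4 replicate 3 (adjusted p = 0.0094 and 0.0028) and was lost without day 2 replicate 2, 3 or 4 (adjusted p = 0.010, 0.012 and 0.013) and without day 4 replicate 1 or 2 (adjusted p = 0.022 and 0.014). The value ranged from -3.85 to -2.59 over these 7 fits, the smallest being that without day 4 replicate 1, the array with the lowest Gbx2. It was also lost with the arrays of the 2 stages alone (adjusted p = 0.033) and with the replicate number as a block (-3.24, adjusted p = 0.15).

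The single steps within this decline were not called. At day 3 relative to day 2 the log2 fold change of Gbx2 was -1.43 (standard error 0.66, adjusted p = 0.28 from limma), and none of the 8 members was called where 7.71% of all genes were called in either direction. With the arrays of days 2 and 3 alone, which gives a smaller spread, it was called (adjusted p = 0.0067). At day 4 relative to day 3 it was -1.87 (standard error 0.70, adjusted p = 0.44), and none of the members was called where 1.42% of all genes were. At unadjusted p under 0.05 and 2-fold there was 1 member in each of these 2 comparisons, and the share of all genes at that threshold was not counted.

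At day 7 relative to day 4 the log2 fold change of Gbx2 was 0.32 (standard error 0.70, adjusted p = 1.0 from limma). None of the 8 members was called in that comparison, at an adjusted or an unadjusted p, where 19.0% of all genes were called in either direction at the adjusted p. The Gbx2 signal varied more among replicates at days 4 and 7 (SD 1.28 and 1.35, n = 3 each) than at days 2 and 3 (SD 0.19, n = 4, and 0.20, n = 3).

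Some marker lists had the same order as Gbx2 on the late arrays and others did not. On day 7 replicates 3, 4 and 5, where Gbx2 had 4.28, 5.62 and 6.97, the mean signal of 4 measured glial markers was 5.59, 6.40 and 7.35, and that of 4 markers of neural crest and Schwann cells was 4.66, 5.22 and 6.52; Sox10 is in both lists. On the same arrays the mean of 3 markers of motor neuron progenitors was 8.10, 8.63 and 9.12, and that of 6 motor neuron markers was 5.98, 7.03 and 7.25. The means of 4 neural progenitor markers (7.70, 7.62 and 8.44) and of 4 neuron markers (12.76, 12.54 and 12.47) did not have that order. Gfap, a defining gene of astrocytes, was under the background level on every array. On day 4 replicates 1, 2 and 3, where Gbx2 had 3.91, 5.59 and 6.43, the mean of 4 neural progenitor markers was 10.12, 10.40 and 10.77. The lists of glia, neural crest, motor neuron progenitors, motor neurons and neurons did not have the Gbx2 order on day 4. The part of these cell types in the Gbx2 signal was not tested.

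The genes with profiles most like that of Gbx2 were Akr1b10 (r = 0.93), an aldo-keto reductase, and Taf7 (r = 0.92), a subunit of the general transcription factor TFIID. Both were highest after RA, at mean signals of 9.08 and 10.31, and lowest at day 4, at 6.52 and 7.53. Between Gbx2 and Hesx1 r was 0.14.

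Otx2, the forebrain and midbrain factor that meets Gbx2 at their common border in the embryo, was called lower after RA than at day 2. It averaged 5.27 ± 0.87 after RA (SD, n = 2) and 9.66 ± 0.29 at day 2 (SD, n = 4), which is 4.39 lower on the log2 scale (standard error 0.48 and adjusted p = 0.00056 by limma). At day 3 it averaged 2.63 ± 0.13 (SD, n = 3), under the background level. On the same arrays Gbx2 averaged 9.58 ± 0.67 after RA and 8.60 ± 0.19 at day 2, and 7.17 ± 0.20 at day 3. Gbx2 was thus still above the background level at the stage where Otx2 was under it. Otx2 is also a gene of the primed epiblast, the state that follows naive pluripotency, and of 5 such genes measured, Otx2 among them, Fgf5 was called lower with it after RA (-3.47). After RA 0.07% of all genes were called lower. At day 3 relative to day 2, 4 of the 5 were called lower, where 3.80% of all genes were. The part of that cell state in the change of Otx2 was not tested.

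**Figure D3:**
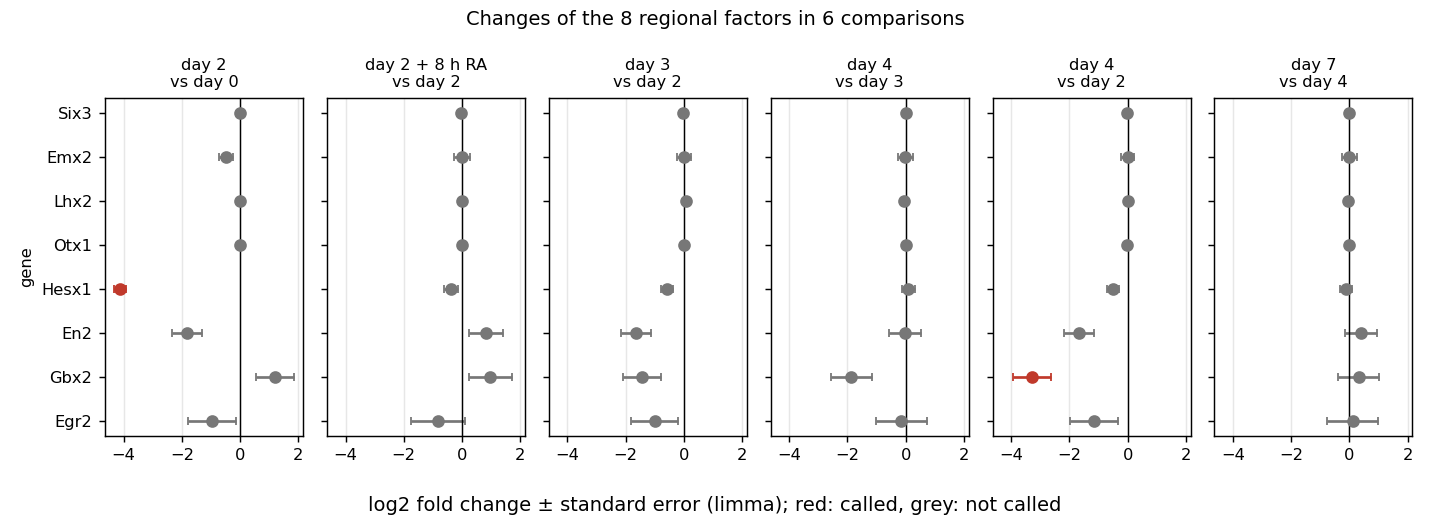
Log2 fold change of the brightest probe set of each of the 8 genes (rows) in 6 comparisons (panels, the later or treated stage over the earlier or untreated one), with the standard error from limma as a bar. Red points passed the call (Hesx1 at day 2 relative to day 0 and Gbx2 at day 4 relative to day 2) and grey points did not.

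Egr2 (Krox20), a zinc finger factor of alternating hindbrain segments and of myelinating Schwann cells, showed no hindbrain phase on these arrays. It had 2.87 and 2.44 after 8 h of RA, and between 2.28 and 2.71 on the 9 arrays of days 3, 4 and 7. All 11 arrays were under the background level. On the day 2 arrays it had 2.37, 4.35, 3.61 and 3.54, with 1 array just above that level. No comparison passed the test, with adjusted p from 0.47 to 1.0 from limma over the 6.

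The highest Egr2 signal was in ES cells and on a single array. Day 0 replicates 1, 2 and 3 had 2.33, 7.13 and 3.80, and the second probe set of the gene had 2.32, 7.32 and 3.16. Both probe sets thus gave the same array as the high one. At day 2 relative to day 0 the log2 fold change was -0.95 with all arrays (standard error 0.82, adjusted p = 0.71 from limma) and 0.40 without day 0 replicate 2 (adjusted p = 0.92).

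Other immediate early genes were high on the same array. Egr1, of the same zinc finger family, had 10.92, 12.76 and 10.67 on day 0 replicates 1, 2 and 3. Fos, a subunit of the AP-1 factor, had 10.96, 12.55 and 6.94. Fosb, its relative, had 2.74, 8.07 and 2.24. Each was highest in replicate 2, and no other of the 18 arrays reached that value.

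Of the 10 immediate early genes measured besides Egr2, 9 were at or above the background level on a day 0 array, and Junb was under it on every array. All 9 were highest in replicate 2 among the 3 day 0 arrays and 6 were highest there among all 18. The mean signal of the 10 genes was 6.71, 8.52 and 6.61 on day 0 replicates 1, 2 and 3. For comparison, 33.3% of the 11122 genes at or above 4 on a day 0 array were highest in replicate 2, and 1.34% were there at least 2 log2 units above both other day 0 arrays, as Egr2 was. A margin of at least 3, which Egr2 also had, was held by 57 genes (0.512%). Markers of feeder fibroblasts were low on replicate 1 and high on replicates 2 and 3 (mean 4.56, 6.80 and 6.98), and those of neural crest and Schwann cells did not have their highest value in replicate 2. What set the Egr2 signal on that array was not tested.

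**Figure D4:**
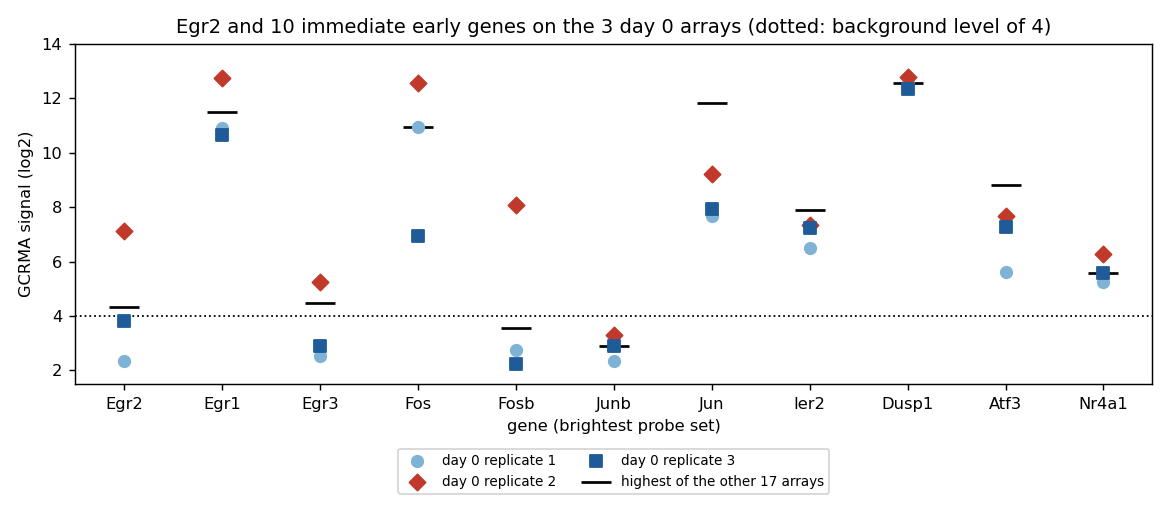
GCRMA signal (log2, vertical axis) of Egr2 and 10 other immediate early genes (horizontal axis, brightest probe set each) on day 0 replicate 1 (circles), replicate 2 (diamonds) and replicate 3 (squares). Black bars give the highest value among the 17 arrays other than day 0 replicate 2, and the dotted line is the background level of 4; the diamond is the highest of the day 0 arrays for Egr2 and for the 9 others that reach that level.

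Of 14 other hindbrain factors measured, 7 were called higher after 8 h of RA than at day 2 and 0 lower, where 0.36% of all genes were called higher and 0.07% lower. For Epha4, 1 of the 7, the call rested on 1 of its 5 probe sets and not the brightest (1.42, adjusted p = 0.17 from limma). None of the 15 other midbrain and border factors was called in either direction by limma. The hindbrain list had a median log2 fold change of 1.10 against 0.00 over all genes. Hoxb1, the gene of the hindbrain segment between those that express Egr2, was at least 83.1-fold higher and Hoxb2 at least 27.8-fold, with their day 2 means set to the background level. Hoxa3 was 43.0-fold higher and Hoxb3 23.2-fold. Egr2 averaged 2.65 ± 0.31 after RA (SD, n = 2) and 3.47 ± 0.82 at day 2 (SD, n = 4), with both means under the background level.

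At day 4 relative to day 2, 7 of the 14 hindbrain factors were again called higher and 0 lower, where 6.07% of all genes were called higher. One of the 7, Gbx1, was under the background level on every array, so its change cannot be read. Hoxb3 was 128-fold and Hoxa3 109-fold higher, and Hoxb2 at least 30.8-fold and Hoxa2 at least 21.5-fold. Epha4, a receptor downstream of Egr2 in the mouse hindbrain, was 4.27-fold higher in its brightest probe set. That was the 1 of its 5 probe sets that was called. Egr2 stayed under the background level on all 3 day 4 arrays. Hoxb1 averaged 10.38 ± 0.51 after RA (SD, n = 2) and 2.81 ± 0.09 at day 2 (SD, n = 4), and 3.91 ± 1.26 at day 4 (SD, n = 3).

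Of the 23 other forebrain factors measured, 0 were called higher after RA and 2 lower, Otx2 (-4.39) and Eomes (-2.47 in its brightest probe set, adjusted p = 0.017, the call resting on its other probe set). At day 4 relative to day 2, 5 were called higher and 2 lower, where 6.07% of all genes were called higher and 7.10% lower. Among the 5, Nr2f1 was at least 203-fold, Pax6 58.3-fold, Sp8 14.5-fold and Foxd1 at least 4.28-fold higher. Pax6 is also in the list of neural progenitor markers, of which 3 of 4 were called higher in the same comparison. A place in the forebrain list thus does not make a gene particular to the forebrain. The median of the forebrain list was 0.00 in both comparisons, as over all genes. The 4 undetected anterior members stood with the 14 of the 23 that had no array above the background level.

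**Figure D5:**
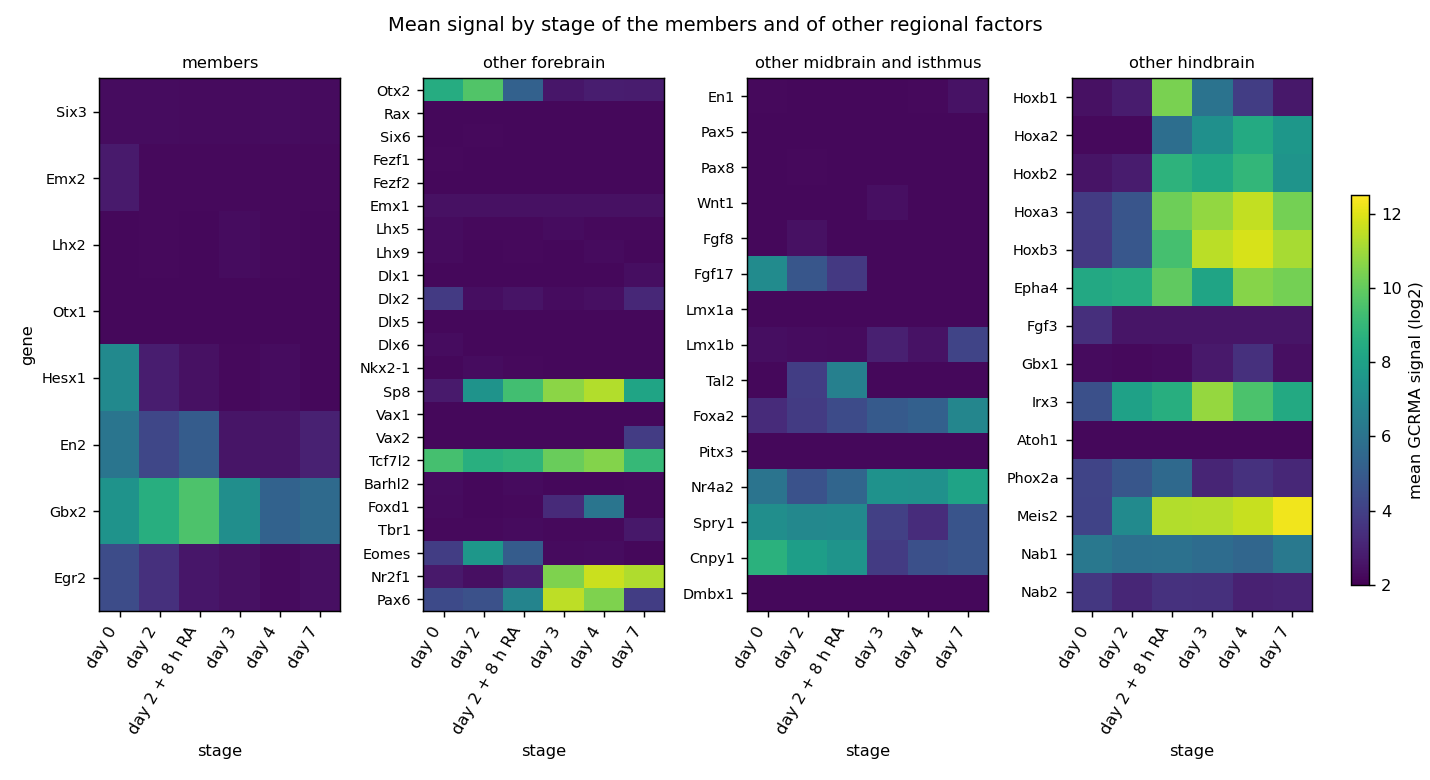
Mean GCRMA signal (log2, colour) by stage (columns) of the 8 genes and of other forebrain, midbrain and border, and hindbrain factors (rows, brightest probe set). Most forebrain and midbrain rows stay at the floor, while Hoxb1, Hoxa2, Hoxb2, Hoxa3 and Hoxb3 are higher after 8 h of RA than at day 2.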

How the data were processed

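Each deposited value is the log2 signal of a probe set. The authors obtained them by GCRMA over the 18 arrays together (background correction, normalization between arrays and summary of probes); the versions of GCRMA and limma they used are not given in the sources used here, and the raw scans were not used. Of 45101 probe sets, 64 controls were left out and 45037 tested; 34945 carry 1 gene symbol in the platform annotation, 932 several and 9160 none, which leaves 18193 genes. Limma (version 3.58.1, R 4.3.3) was fitted to 6 stage means on all 18 arrays (12 residual degrees of freedom), with Benjamini-Hochberg adjustment over all tested probe sets. Calls needed an adjusted p below 0.01 together with a 2-fold change in any probe set of the gene, the thresholds of the study's methods. Fold sizes against a stage with every array under a log2 signal of 4 use 4 for that stage and are given as "at least". The number of arrays limits the precision.

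The members and all gene lists were chosen with earlier results of these data known. The text names all 8 members, for each member with a stage mean of at least 6 the 2 genes with the highest correlation, and called genes of the context lists, up to 4 by size; other named context genes were chosen after their values were seen. The fit was tested on simulated data. Replicate numbers come from the sample titles. Deviations of same-numbered arrays correlated at 0.48, 0.35 and 0.48 between days 2 and 3. Between days 3 and 4 the correlations were 0.64, 0.42 and 0.75. In the other comparisons at least 1 pair was under 0.1. The main fit did not pair the arrays in any comparison, so its standard errors and p-values are unpaired. Pairing entered only as the replicate block among the alternatives. Alternatives were the 2 compared stages alone, a replicate block, trend and robust moderation, array weights, a filter on dim probe sets, values raised to 4, quantile and median normalization, other probe set rules, an adjusted p of 0.05 and each array left out.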

Additional observations from a re-analysis of the deposited data

Results flagged for a closer look

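Within the 4 day 2 arrays, 1 value stood apart from the other 3 for 4 probe sets: Six3 (its brightest probe set) at 2.45, Emx2 at 2.26, Lhx2 at 2.29 and Otx1 at 2.25. All 4 values lie under the background level of 4, where the other arrays are nearly identical, so a minute difference sets a value apart. The usual rate of about 1 group in 20 by chance assumes values with ordinary spread and does not hold here. The 9 probe sets with any spread at day 2 were examined. Only stages with 4 arrays were examined in this way, so the high Egr2 value among the 3 day 0 arrays is described in the text alone.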

How the results depend on the processing

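The log2 fold changes of the members were recomputed under each alternative: 846 of the values kept their side of the threshold, 8 lost their call and 2 gained one, and no called value changed sign. Among the 846 are 47 that were uncalled both ways and changed sign, none larger than 0.95. With the arrays of the 2 stages alone, 1 member was called at day 3 relative to day 2 (Gbx2) and 0 at day 4 relative to day 2, and array weights gave 1 at day 3 relative to day 2 (En2). The replicate block gave 0 members in all 5 comparisons in which it could be fitted. These include day 2 relative to day 0 (Hesx1, -4.205) and day 4 relative to day 2 (Gbx2, -3.24). The cause was not tested. For days 2 and 3 and days 3 and 4 the block could change no member's call. No member was called there in the main fit, and the block called no gene. No paired analysis was possible for day 7 relative to day 4 because they share 1 replicate number. Leaving out 1 array gave 0 to 1 members at day 4 relative to day 2. Over all genes, the calls were 814 (day 2 relative to day 0), 79 (RA relative to day 2), 1402 (day 3 relative to day 2), 258 (day 4 relative to day 3), 2395 (day 4 relative to day 2) and 3456 (day 7 relative to day 4). With the 2 stages alone they were 66, 8, 651, 17, 1067 and 1291, and with the replicate block 0 in each of the first 5 (1384, 258, 2487, 1046 and 3298 at an unadjusted p under 0.05 and 2-fold). An adjusted p of 0.05 gave 1348 at day 2 relative to day 0 and 441 at day 4 relative to day 3, array weights gave 2384 at day 3 relative to day 2, and day 4 relative to day 3 had 168 without day 3 replicate 1 and 171 without day 4 replicate 2. Signals under 4 have no order that the arrays can measure.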
